A study of Mus musculus with 9 samples.

Results

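The mouse mitochondrial genome is a small circular DNA in the cytoplasm, and the deposited table lists all of its genes with names that begin with "mt-". This name picked 37 of the 55335 entries: 13 protein genes, 2 ribosomal RNA (rRNA) genes and 22 transfer RNA (tRNA) genes. The choice used no measured value. The classes are described apart, because the 22 tRNA genes are too short to be read alike in all libraries.

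Transcripts were measured in pools of mouse 8-cell embryos that had received small interfering RNA (siRNA) as zygotes. The control group received a nontargeting siRNA, the MFN1-KD group an siRNA against Mfn1, which encodes a fusion protein of the mitochondrial outer membrane, and the H3.3-KD group received siRNAs against H3f3a and H3f3b, which both encode the histone variant H3.3. Each group had 3 libraries, and the labels speak of 5 to 10 embryos for a group without saying how many entered each library, and give no strain, age or batch. The methods name ICR mice, with young and aged females bought for the study, and speak of 10 embryos for a group, which differs from the labels. All 3 groups share the injection of an siRNA and the culture that followed. The libraries were made by Smart-Seq2 from polyadenylated RNA with an oligo-dT primer. No label says that the pools of a group came from separate days or mothers, so the p-values below measure the spread between these libraries, which may be partly technical. In pooled embryos, fewer cells or mitochondria and less RNA in each of them cannot be told apart.

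Mitochondrial DNA is transcribed from both strands into long precursor RNAs. The tRNAs that lie between the other genes are cut out, which frees the rRNAs and messenger RNAs. The protein genes encode core subunits of the respiratory chain and of ATP synthase, whose other subunits are encoded in the nucleus, and the rRNAs build the mitochondrial ribosome. The embryo inherits its mitochondria from the oocyte, and mitochondrial DNA is scarcely copied before implantation, whereas its transcription resumes during cleavage.

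The knockdowns were visible in their targets. Mfn1 in the MFN1-KD libraries was at 15.4% of its control mean of 32.6 ± 16.4 FPKM (fragments scaled to gene length and to the size of the library; SD, n = 3). H3f3a and H3f3b in the H3.3-KD libraries were at 7.72% and 8.24% of control. All 10 markers of 8-cell embryos were above 1 FPKM in at least 1 library. Their summed level was 161 to 254 FPKM in control, 210 to 214 in MFN1-KD and 749 to 996 in H3.3-KD. In H3.3-KD, Pou5f1 was at 63.1 to 392 FPKM (5.10 to 8.90 in control) and Klf17 at 195 to 401 (29.8 to 50.1). Tead4, Klf5 and Tfap2c were also above control there, whereas Nanog, Padi6, Ooep, Tle6 and Cdh1 overlapped with control. Ooep was at most 2.04 FPKM, and in MFN1-KD library 3 Pou5f1 was at 0.30, Padi6 at 0.33 and Tle6 at 0.67. In every MFN1-KD library Pou5f1 (0.30 to 3.68 FPKM), Padi6 (0.33 to 4.54) and Klf17 (23.9 to 25.2) were below control. Klf5 and Tfap2c were above control in every MFN1-KD library, whereas Nanog, Tead4, Ooep, Tle6 and Cdh1 overlapped with control. Of 12 markers of cumulus and granulosa cells, only Amhr2 was above 1 FPKM in any library. Inhba, Fshr and Cyp11a1 were listed at 0 in all libraries. The summed level of that list was 16.2 to 30.1 FPKM in control, 10.7 to 20.9 in MFN1-KD and 39.0 to 67.2 in H3.3-KD. Most of it was Amhr2, at 16.05 to 29.79, 10.16 to 19.32 and 38.01 to 66.09 FPKM in these groups. The 5 blood markers summed to 89.6 to 139.5 FPKM in control, 22.3 to 89.5 in MFN1-KD and 11.8 to 18.6 in H3.3-KD, and the 4 sperm markers to 2.93 FPKM or less. The part of these markers in the results below was not tested. The third MFN1-KD library stood apart with 15577 entries above 0, against 19250 to 24820 in the other libraries. Read depth is unknown, because the files give FPKM alone.

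The genes are packed closely on the circle, here given in GRCm38 (mm10) with GENCODE M21. All protein genes have 1 exon. Of the 13, 12 are read from the plus strand of the reference and 1, mt-Nd6, from the minus strand, and 8 of the 22 tRNA genes also lie on the minus strand. The gene mt-Atp8 (chrM:7766-7969) shares its last 43 bases with mt-Atp6, which starts in another reading frame. Its sequence is shown because its fold change in H3.3-KD was the smallest of the protein genes, with the shared bases in capitals.
mt-Atp8: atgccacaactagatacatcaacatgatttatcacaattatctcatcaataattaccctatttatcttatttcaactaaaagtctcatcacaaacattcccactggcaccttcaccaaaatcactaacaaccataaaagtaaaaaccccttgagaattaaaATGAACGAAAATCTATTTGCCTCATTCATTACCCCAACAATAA
The gene mt-Nd4l (chrM:9877-10173) shares 7 bases with mt-Nd4, and it is shown because most of its signal was listed under a nuclear name. The shared bases are in capitals.
mt-Nd4l: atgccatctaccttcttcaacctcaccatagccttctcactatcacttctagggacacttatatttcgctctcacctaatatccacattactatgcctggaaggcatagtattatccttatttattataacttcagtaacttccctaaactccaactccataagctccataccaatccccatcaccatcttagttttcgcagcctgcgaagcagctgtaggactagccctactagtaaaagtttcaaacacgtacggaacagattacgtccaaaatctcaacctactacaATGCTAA
Of the 13 protein genes, 3 are annotated without a whole stop codon. In cells this stop is completed by the poly(A) tail that oligo-dT priming also uses. The last 30 bases of these 3 genes are shown beside those of mt-Nd1, with the final codon or its remaining base in capitals.
mt-Nd1 (chrM:3678-3707): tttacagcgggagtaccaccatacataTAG
mt-Co3 (chrM:9361-9390): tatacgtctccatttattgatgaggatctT
mt-Nd4 (chrM:11515-11544): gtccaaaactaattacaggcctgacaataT
mt-Cytb (chrM:15259-15288): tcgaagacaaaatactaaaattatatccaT

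Near-identical copies of 7 protein genes are annotated in the nuclear genome. They lie together on chromosome 1, from 24611535 to 24616197 on the minus strand, as unprocessed pseudogenes of at least 99% identity over at least 200 bases. The copies of mt-Nd4l (Gm10222), mt-Co3 (Gm28437), mt-Atp6 (Gm10925) and mt-Co2 (Gm28661) matched over their whole length with 0 mismatches, and so did the copy of the first part of mt-Nd4 (Gm28439). The copy of mt-Nd3, Gm28438, differs by T3C. The copy of the end of mt-Co1, Gm29216, differs by A1066T within the 483 bases that aligned, out of its 492. Each change is given with the mitochondrial base before the position in that gene and the base of the copy after it. The start of mt-Nd3 (chrM:9459-9476) is shown beside the same stretch of its copy (chr1:24613102-24613119, minus strand), with the differing base in capitals.
mt-Nd3: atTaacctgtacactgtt
Gm28438: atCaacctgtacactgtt

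Of the 7 copies, 6 were listed between 366 and 38977 FPKM, levels at which reads may have been divided between the mitochondrial and the nuclear names. How reads with more than 1 match were assigned was not tested. Gm10222 was at 6932 ± 1070 FPKM in control (SD, n = 3), whereas mt-Nd4l itself was at 779 ± 216. With the copy added, weighted by its length, the entry mt-Nd4l held 7.28% to 17.4% of the combined level in the 9 libraries. The entry mt-Nd3 held 31.7% to 43.9%, mt-Co3 40.9% to 54.1%, mt-Atp6 52.1% to 71.3%, mt-Co2 54.1% to 64.5%, and mt-Co1 59.0% to 75.7%. The copy of mt-Nd4 matched over 876 bases as well, but was at 9.37 to 36.5 FPKM, and mt-Nd4 held at least 99.4%. For mt-Nd1, mt-Nd2, mt-Nd5, mt-Nd6, mt-Cytb, mt-Atp8 and the rRNA genes no such copy was found among the annotated transcripts. The levels of mt-Nd4l, mt-Nd3, mt-Co3, mt-Atp6, mt-Co2 and mt-Co1 are uncertain, and their fold changes are also given with the copies added.

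Mitochondrial transcripts were among the most abundant in every group. By mean FPKM, mt-Atp6 ranked 1 of 55335 entries in the control and H3.3-KD groups, and mt-Cytb ranked 1 in MFN1-KD. Of the 15 protein and rRNA genes, 12 were among the 100 highest entries in control and MFN1-KD, whereas H3.3-KD had 7 there. In control the order of the protein genes by level per length was led by mt-Atp6 at 31499 ± 5074 FPKM (SD, n = 3), mt-Cytb at 25734 ± 3753 and mt-Atp8 at 23715 ± 4440, whose libraries overlapped. Below them mt-Nd1 (13225 ± 267) and mt-Co2 (8013 ± 1501) stood apart from their neighbours. The genes mt-Nd4, mt-Nd3, mt-Co1, mt-Nd2 and mt-Co3 followed with means from 5271 to 4171 FPKM, and each overlapped with the next. The lowest levels were those of mt-Nd5 (1603 ± 192), mt-Nd6 (1114 ± 211) and mt-Nd4l (779 ± 216). Of the 12 pairs of neighbours in this order, 7 overlapped. The order is that of the mitochondrial entries as listed. Adding the copies changes it, with control means of 15268 FPKM for mt-Nd3, 14088 for mt-Co2, 8927 for mt-Co3 and 7641 for mt-Nd4l.

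**Figure D1:**
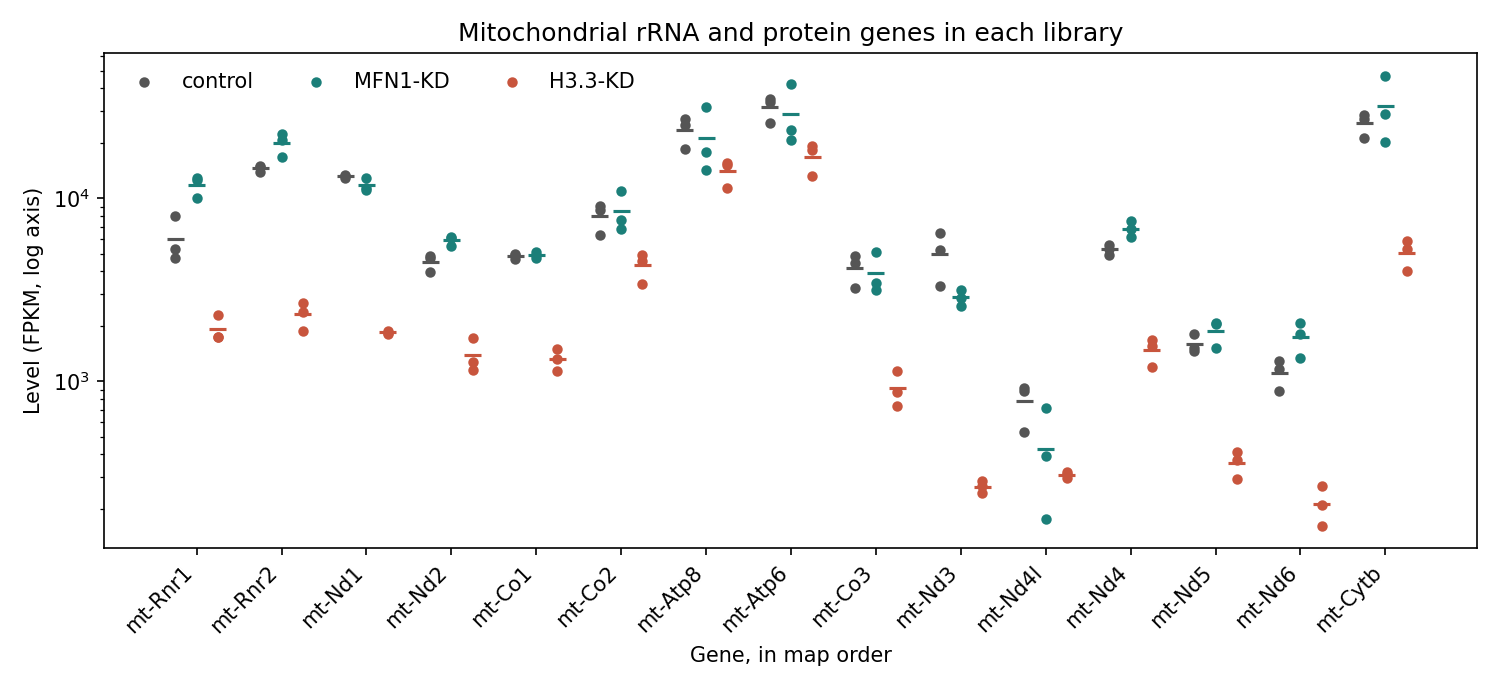
Level of each rRNA and protein gene in the 9 libraries, as FPKM on a log axis, with genes in map order, points for libraries and short lines for the mean of a group. The H3.3-KD points lie below all control points for each of the 15 genes, whereas MFN1-KD points lie above the control points for mt-Rnr1 and mt-Rnr2 and overlap with them for most protein genes.

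The 13 protein genes together held 9.97% to 10.6% of the summed FPKM in the control libraries, 9.07% to 14.4% in MFN1-KD and 4.11% to 5.81% in H3.3-KD. The H3.3-KD libraries were all below control, and the MFN1-KD libraries lay on both sides of it. The 2 rRNA genes held 1.48% to 2.05% in control, 2.58% to 2.99% in MFN1-KD and 0.390% to 0.516% in H3.3-KD, so the 3 groups did not overlap. These shares are descriptions without a test.

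In H3.3-KD embryos the mitochondrial messenger RNAs and rRNAs fell. With limma on log2(FPKM + 1), 12 of the 13 protein genes and both rRNA genes were lower than in control at a Benjamini-Hochberg adjusted p under 0.05 over the 13011 genes tested, of which 9.12% were called lower and 21.8% higher. None of the 13 was called higher. All 13 and both rRNA genes were lower in every H3.3-KD library than in every control library, which held for 18.9% of the genes tested, while 34.5% were higher without overlap. At the threshold of an unadjusted p under 0.05 and more than 2-fold, 10 of the 13 and both rRNA genes were lower, against 9.39% of all genes tested, and 23.9% of all genes were higher. The median log2 fold change of the 13 was -1.88, with a range from -4.18 to -0.74, beside a median of 0.26 over all genes tested.

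The largest falls among the protein genes were those of mt-Nd3 and mt-Nd1, both of complex I, the NADH dehydrogenase that feeds electrons into the chain, for which 7 of the protein genes encode subunits. The gene mt-Nd3 was at 3322, 6435 and 5248 FPKM in the control libraries and at 244, 269 and 284 in H3.3-KD. All H3.3-KD values were far below the lowest control library. Its log2 fold change was -4.18 ± 0.23 (SE), at an adjusted p of 7.23e-06 (limma), and with the copy added it was -4.41 ± 0.23.

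The gene mt-Nd1 was at 13500, 13209 and 12967 FPKM in control and at 1890, 1826 and 1851 in H3.3-KD, or 14.0% of the control mean. The libraries of each group lay close together and the groups were far apart. The log2 fold change was -2.83 ± 0.13 (SE; adjusted p = 5.88e-06, limma), and this gene has no annotated copy of the kind above.

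The other subunits of complex I fell less. The gene mt-Nd6, the only protein gene of the other strand, was at 1296, 1163 and 883 FPKM in control and at 210, 268 and 163 in H3.3-KD (log2 fold change -2.39 ± 0.25). Its neighbour mt-Nd5 was at 1822, 1522 and 1464 FPKM in control and at 292, 409 and 373 in H3.3-KD (-2.17 ± 0.20). Neither gene overlapped between the groups. For mt-Nd4 the log2 fold change was -1.84 ± 0.17 and for mt-Nd2 -1.72 ± 0.18, with H3.3-KD means at 28.1% and 30.8% of control. For mt-Nd4l it was -1.29 ± 0.43 with an adjusted p of 0.0424 (limma), and -1.82 ± 0.29 with the copy added. As deposited, the call of mt-Nd4l was lost without any of control libraries 2 and 3, MFN1-KD library 1 and the 3 H3.3-KD libraries, left out in turn (adjusted p from 0.0568 to 0.136, limma), and with the copy added it was 0.00126 over all libraries.

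Cytochrome b, the subunit of complex III encoded here, fell as well. The gene mt-Cytb was at 21464, 27228 and 28510 FPKM in control and at 4016, 5308 and 5831 in H3.3-KD, which is 19.6% of the control mean. The log2 fold change was -2.36 ± 0.28 (SE; adjusted p = 0.000295, limma).

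The 3 subunits of complex IV, cytochrome c oxidase, differed among themselves. The gene mt-Co3 was at 3259, 4417 and 4838 FPKM in control and at 733, 873 and 1143 in H3.3-KD (log2 fold change -2.19 ± 0.24), and mt-Co1 was at 4661, 4958 and 4881 FPKM in control and at 1143, 1325 and 1502 in H3.3-KD (-1.88 ± 0.15). With the copies added these changes were -2.31 ± 0.23 and -1.98 ± 0.15. The gene mt-Co2 was at 6306, 8609 and 9125 FPKM in control and at 3424, 4569 and 4939 in H3.3-KD, or 53.8% of the control mean. Its groups also did not overlap, but its log2 fold change was -0.89 ± 0.23 (adjusted p = 0.0139, limma), and -0.87 ± 0.23 with the copy added.

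In complex V, the ATP synthase, the changes were close in size to that of mt-Co2. The gene mt-Atp6, which encodes a subunit of its proton channel, was at 25701, 33665 and 35131 FPKM in control and at 13230, 18323 and 19239 in H3.3-KD, and its log2 fold change was -0.90 ± 0.26 (adjusted p = 0.0246, limma), and -0.998 ± 0.293 with the copy added. The gene mt-Atp8 was at 18724, 25197 and 27224 FPKM in control and at 11415, 15320 and 15626 in H3.3-KD. Every H3.3-KD library of both genes was below the lowest control library, but mt-Atp8, with a log2 fold change of -0.74 ± 0.28 (95% interval -1.36 to -0.13), had an adjusted p of 0.0639 (limma) and was the protein gene not called. The calls of mt-Atp6 and of mt-Co2 in complex IV were lost without control library 2 (adjusted p = 0.0810 and 0.0561, limma), without control library 3 (0.0953 and 0.0659) and without H3.3-KD library 1 (0.0864 and 0.0516), and mt-Atp8 was called without MFN1-KD library 2 (0.0455) or 3 (0.0106), which entered the same fit.

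Both rRNA genes fell in H3.3-KD. The gene of the large ribosomal RNA, mt-Rnr2, was at 14875, 14004 and 15020 FPKM in control and at 2386, 2698 and 1895 in H3.3-KD, and its log2 fold change was -2.67 ± 0.17 (SE; adjusted p = 1.48e-05, limma). The gene of the small ribosomal RNA, mt-Rnr1, was at 7997, 5293 and 4722 FPKM in control and at 1759, 2298 and 1746 in H3.3-KD, and its log2 fold change was -1.61 ± 0.22 (adjusted p = 0.000573, limma). All H3.3-KD libraries of both genes were below all control libraries.

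**Figure D2:**
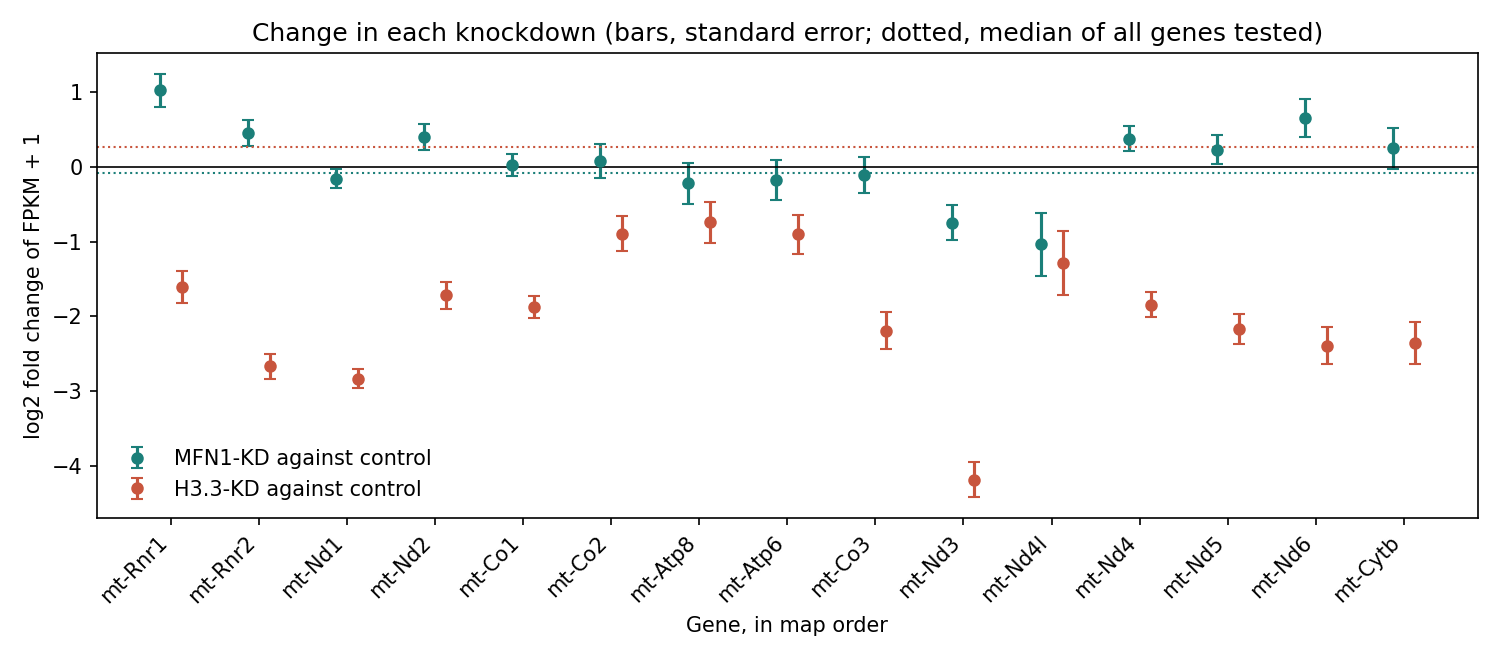
Log2 fold change of FPKM + 1 in each knockdown against control for the 15 rRNA and protein genes in map order, with standard errors as bars. Dotted lines are the medians over the genes tested (-0.08 for MFN1-KD, 0.26 for H3.3-KD), and mt-Nd3 lies lowest in H3.3-KD at -4.18.

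The GC content of the protein genes (31.9% to 41.1%) was low beside the median of 48.9% over the genes tested, and their lengths (204 to 1824 bases) were short beside a median of 2571. When the trend of each library over GC content and length was removed, 9 of the 13 protein genes and both rRNA genes were called lower in H3.3-KD, with a median log2 fold change of -1.32 over the 13 beside -0.02 over all genes. The change of mt-Nd3 was then -2.95, that of mt-Nd1 -2.11 and that of mt-Rnr2 -2.19. The calls of mt-Co2 (-0.04), mt-Atp6 (0.02) and mt-Nd4l (-0.23) were lost, and mt-Atp8 was at 0.65 with an adjusted p of 0.199 (limma). Among the 13 genes themselves, the log2 fold change in H3.3-KD had a Spearman's rho of 0.02 with GC content and of -0.22 with length, a description over 13 genes that share their precursor RNAs.

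**Figure D3:**
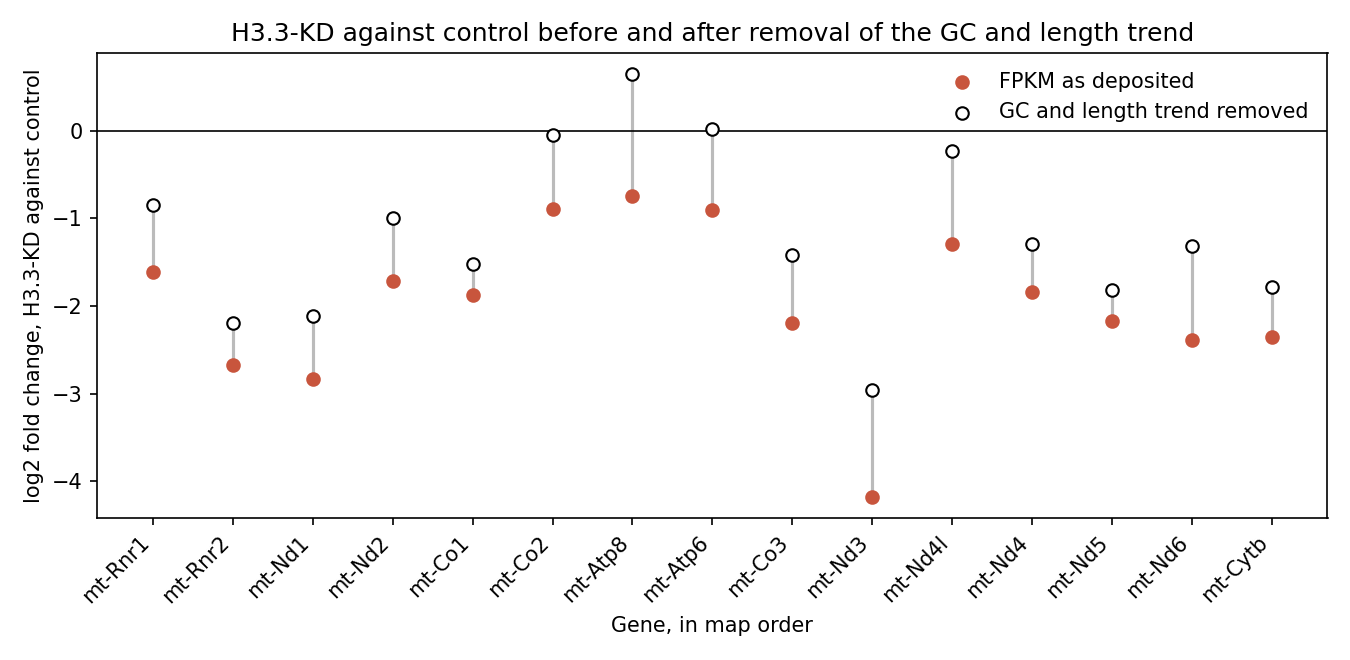
Log2 fold change in H3.3-KD against control for the 15 genes, from the deposited FPKM (filled points) and after removal of the trend of each library over GC content and length (open points). All 15 open points lie above the filled points, 13 of them at or below -0.04, and those of mt-Atp6 and mt-Atp8 lie above 0.

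The make-up of the mitochondrial messenger RNAs, as listed in FPKM, differed between H3.3-KD and control. This quantity, the share of each gene within the summed FPKM of the 13, does not depend on how a library was scaled. Effects of gene length or GC content that differ between libraries can still move it. The shares were not computed with that trend removed. The share of mt-Atp8 was 16.9%, 18.3% and 19.4% in the control libraries and 29.1%, 29.4% and 28.8% in H3.3-KD. That of mt-Atp6 was 23.1%, 24.5% and 25.1% in control and 33.7%, 35.2% and 35.5% in H3.3-KD. These genes and their upstream neighbour mt-Co2 (5.68% to 6.52% in control, 8.72% to 9.11% in H3.3-KD) were the 3 genes with a higher share in every H3.3-KD library, and 8 of the 13 had a lower share in every H3.3-KD library. The share of mt-Nd3 was 2.99% to 4.69% in control and 0.516% to 0.622% in H3.3-KD, and that of mt-Cytb 19.3% to 20.4% and 10.2% to 10.8%. With the nuclear copies added, 3 genes were above control and 9 below. By complex, the 2 genes of complex V held 40.0% to 44.5% in control and 62.8% to 64.6% in H3.3-KD, the 7 genes of complex I 21.7% to 27.9% and 10.9% to 13.5%. The 3 genes of complex IV held 12.8% to 13.5% in control and at most 14.0% in H3.3-KD, and their shares overlapped.

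**Figure D4:**
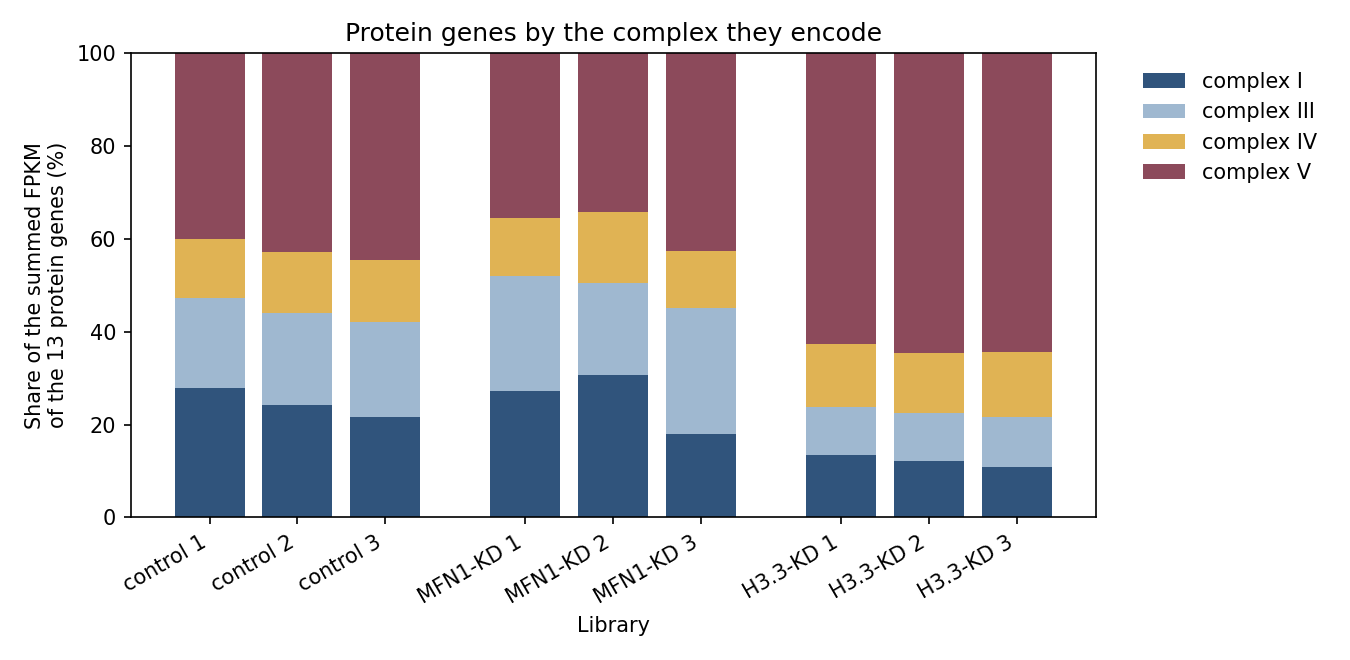
Share of each respiratory complex in the summed FPKM of the 13 protein genes, in percent, as 1 stacked bar for each of the 9 libraries. Complex V takes 62.8% to 64.6% in the H3.3-KD libraries, above the 40.0% to 44.5% of the control libraries and the 34.2% to 42.7% of the MFN1-KD libraries.

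In MFN1-KD embryos the small ribosomal RNA was called higher, and no protein gene passed the test. How far oligo-dT priming captures rRNA in any group was not tested. Over all genes tested 1.15% were called higher and 2.20% lower at an adjusted p under 0.05 (limma). Of the 13 protein genes 0 were called and 4 had an unadjusted p under 0.05, which were mt-Nd3, mt-Nd4l, mt-Nd4 and mt-Nd6. Their median log2 fold change was 0.02, with a range from -1.04 to 0.65, beside -0.08 over all genes. At an unadjusted p under 0.05 and more than 2-fold, mt-Rnr1 was higher and mt-Nd4l lower, thresholds that 5.02% of all genes passed as higher and 9.05% as lower.

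The gene mt-Rnr1 was at 12578, 13003 and 10115 FPKM in MFN1-KD, against 7997, 5293 and 4722 in control. All MFN1-KD libraries were above all control libraries. The log2 fold change was 1.02 ± 0.22 (SE) with an adjusted p of 0.0404 (limma), and it was 1.13 with an adjusted p of 0.0420 without the third MFN1-KD library. The call was lost without control library 2 (0.94, adjusted p = 0.157), control library 3 (0.86, 0.173), MFN1-KD library 1 (0.97, 0.0690) or 2 (0.95, 0.0638), or any H3.3-KD library (1.02, 0.0504 to 0.0656). Over 21 alternative settings the adjusted p ranged from 0.00621 to 0.173 while the direction held, and it was under 0.05 in 10 of 22 settings, this one included. The gene mt-Rnr2 was at 22596, 16906 and 20887 FPKM in MFN1-KD, and these libraries too were above all control libraries. Its log2 fold change was 0.45 ± 0.17 (95% interval 0.07 to 0.83) with an adjusted p of 0.151 (limma).

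Some protein genes did not overlap between MFN1-KD and control, in either direction. In 3 of them, mt-Nd2, mt-Nd4 and mt-Nd6, all MFN1-KD libraries were above all control libraries, and in 2, mt-Nd1 and mt-Nd3, all were below. Over all genes tested, 11.4% were higher and 16.8% lower without overlap. The gene mt-Nd6 was at 1813, 2098 and 1350 FPKM in MFN1-KD against 1296, 1163 and 883 in control (log2 fold change 0.65 ± 0.25, adjusted p = 0.155, limma). The lowest MFN1-KD library of mt-Nd6 was just above the highest control library.

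The gene mt-Nd3 was at 2590, 3172 and 2868 FPKM in MFN1-KD (log2 fold change -0.75 ± 0.23, adjusted p = 0.0938, limma). With the copy added it was at 50.3% of control, with a log2 fold change of -0.94 ± 0.23 and an adjusted p of 0.0570 (limma). The next gene on the map, mt-Nd4l, was at 390, 718 and 177 FPKM in MFN1-KD against 530, 915 and 891 in control, and its groups overlapped. With its copy added it was at 51.5% of control without overlap (-1.03 ± 0.29, adjusted p = 0.0742).

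The gene mt-Cytb was at 29033, 20355 and 46971 FPKM in MFN1-KD, where the library that stood apart was the highest. Its log2 fold change was 0.25 ± 0.28, and -0.07 without that library. The remaining genes mt-Nd5, mt-Co1, mt-Co2, mt-Co3, mt-Atp6 and mt-Atp8 had log2 fold changes from -0.22 to 0.23, all with overlapping libraries. With the copies added mt-Co1, at 0.19 ± 0.15 with an adjusted p of 0.467 (limma), lay above control in every MFN1-KD library, and mt-Co2, mt-Co3 and mt-Atp6 were between -0.03 and 0.01. As shares of the 13, all genes overlapped between MFN1-KD and control, but with the copies added mt-Nd3 (3.02% to 6.28% against 6.61% to 10.3% in control) and mt-Nd4l (0.977% to 3.45% against 4.18% to 4.48%) were below.

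Both knockdowns were compared with the same controls, so the difference between them was tested directly. In MFN1-KD against H3.3-KD, 10 of the 13 protein genes and both rRNA genes were higher in MFN1-KD at an adjusted p under 0.05 (limma), against 11.0% of all genes tested, with 27.6% of all genes lower. The median log2 difference of the 13 was 2.11, beside -0.39 over all genes. The largest difference was that of mt-Nd3 at 3.43 ± 0.23 and the next that of mt-Rnr2 at 3.12 ± 0.17. The 3 genes that did not pass were mt-Atp6 (0.72 ± 0.26, adjusted p = 0.0501), mt-Atp8 (0.52 ± 0.28, adjusted p = 0.159) and mt-Nd4l (0.25 ± 0.43, adjusted p = 0.677). For mt-Nd4l the 95% interval ran from -0.70 to 1.19. With the nuclear copies added, mt-Atp6 (1.01 ± 0.29, adjusted p = 0.0202) and mt-Nd4l (0.79 ± 0.29, adjusted p = 0.0497) also passed. After removal of the trend over GC content and length, mt-Atp8 was lower in MFN1-KD than in H3.3-KD (-1.52, adjusted p = 0.00917, limma).

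Ratios within a library do not depend on its scaling, but effects of gene length or GC content that differ between libraries can still move them. The ratio of mt-Rnr2 to mt-Rnr1, which lie next to each other with only 1 tRNA gene between them, was 1.86, 2.65 and 3.18 in control, 1.80, 1.30 and 2.07 in MFN1-KD, and 1.36, 1.17 and 1.09 in H3.3-KD. All H3.3-KD ratios were below all control ratios, with a log2 difference of -1.06 and a two-sided exact permutation p of 0.1, the smallest that 3 libraries against 3 can give. The MFN1-KD ratios overlapped with control (log2 difference -0.57, exact p = 0.20). The ratio of mt-Nd6 to its neighbour mt-Nd5 on the other strand was 0.711, 0.764 and 0.603 in control, 0.872, 1.02 and 0.882 in MFN1-KD, and 0.718, 0.654 and 0.436 in H3.3-KD. It was higher in every MFN1-KD library than in control (log2 difference 0.42, exact p = 0.10) and overlapped in H3.3-KD (-0.23, exact p = 0.60). The ends of mt-Nd5 and mt-Nd6 share 14 bases on opposite strands, and whether reads were counted by strand is not given in the sources used here, so their reads may not be fully separable. The ratio of mt-Atp8 to mt-Atp6, which share 1 messenger RNA, was 0.729 to 0.775 in control, 0.682 to 0.756 in MFN1-KD and 0.812 to 0.863 in H3.3-KD. With the copy of mt-Atp6 added it was 0.474 to 0.518, 0.391 to 0.457 and 0.569 to 0.607. These 2 genes share 43 bases on the same strand, so their reads may not be fully separable either.

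The tRNA genes could not be compared between libraries. The 22 genes are 59 to 75 bases long, and each library had a shortest gene length below which entries were listed at 0, apart from the entry Gm25432 of 66 bases. That length was 69, 72 and 69 bases in control, 66, 79 and 66 in MFN1-KD and 74 in all 3 H3.3-KD libraries. The number of tRNA genes above 0 was 11, 1 and 10 in control, 19, 0 and 19 in MFN1-KD, and 1 in each H3.3-KD library. Of the 22 genes, 19 reached a mean of 1 FPKM, and 0 of these were called in either knockdown against control. Several were above 0 in MFN1-KD libraries alone and passed the filter through these only, so no count of them is read. Both named tRNAs below are whole genes, shown because mt-Tl1, at 75 bases the longest, was above 0 in 8 of the 9 libraries and mt-Tk, at 65 bases, in none.
mt-Tl1 (chrM:2676-2750): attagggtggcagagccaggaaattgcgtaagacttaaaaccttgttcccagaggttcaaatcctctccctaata
mt-Tk (chrM:7700-7764): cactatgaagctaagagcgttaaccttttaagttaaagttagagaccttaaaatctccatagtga

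The tRNA for leucine mt-Tl1, which lies between mt-Rnr2 and mt-Nd1, was at 969, 504 and 478 FPKM in control, 565, 0 and 469 in MFN1-KD, and 152, 159 and 72.6 in H3.3-KD. Its length is just above the limit of 74 bases in H3.3-KD, so the low values there are not read as a difference, and the MFN1-KD library at 0 is the one with a limit of 79 bases. The highest control means were those of mt-Ts1, a serine tRNA, at 11435, 0 and 7411 FPKM, of mt-Tq, for glutamine, at 5875, 0 and 10288, and of mt-Te, for glutamate, at 1932, 0 and 2622. These 3 genes lie on the minus strand, opposite most protein genes. Whether reads were counted by strand is not known, so the values may include reads of RNA from the other strand, which was not tested. In the MFN1-KD libraries the values were 13795, 0 and 23021 FPKM for mt-Ts1, 6547, 0 and 11443 for mt-Tq, and 4123, 0 and 6719 for mt-Te, and all 3 genes were listed at 0 in H3.3-KD. The zeros are the libraries whose shortest length exceeds the gene, so no direction is read from them. The same holds for mt-Ty and mt-Tw, both 67 bases, which passed the test between MFN1-KD and H3.3-KD but were listed at 0 in every control and H3.3-KD library and in 1 MFN1-KD library. The genes mt-Tk, mt-Tr and mt-Ts2 were listed at 0 in all 9 libraries, among which mt-Tr, with 68 bases, is longer than the limit of 2 libraries.

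**Figure D5:**
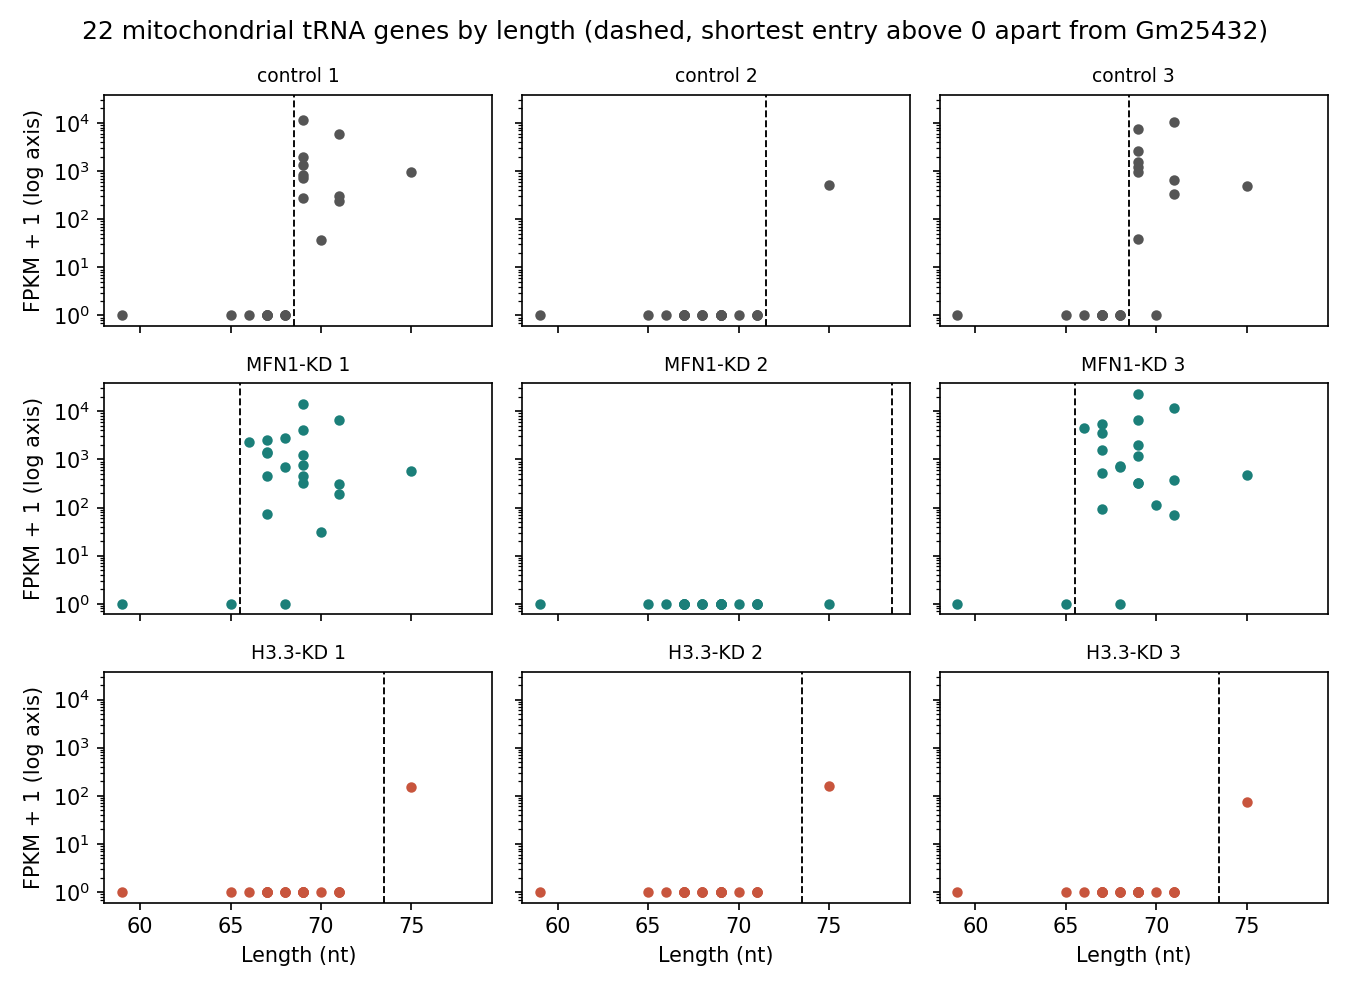
FPKM + 1 of the 22 tRNA genes on a log axis against gene length in bases, with 1 panel for each library. Dashed lines mark the shortest entry above 0 in a library apart from Gm25432, from 66 to 79 bases, and the tRNA genes to their left are all at 0.

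The nuclear genes whose proteins assemble with the mitochondrially encoded ones were read from lists of known subunits. In H3.3-KD, 51 of 79 tested nuclear subunits of complexes I, III, IV and V were called lower and 2 higher, beside 9.12% and 21.8% of all genes tested. These were 25 of 37 for complex I, 6 of 9 for complex III, 10 of 15 for complex IV and 10 of 18 for complex V, with median log2 fold changes of -1.11, -1.25, -1.01 and -1.16. The genes with the smallest p were Ndufa1 in complex I (99.1 ± 38.5 FPKM against 535 ± 86.0 in control, SD, n = 3), Uqcrh in complex III (212 ± 66.5 against 764 ± 103), Ndufa4 in complex IV (176 ± 43.7 against 664 ± 80.4) and Atp5j in complex V (370 ± 54.4 against 1472 ± 310). Their log2 fold changes were -2.48, -1.88, -1.93 and -1.98. After removal of the GC and length trend the medians were -1.45, -1.25, -0.98 and -1.08. The difference between the lists was not tested.

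The genes that transcribe, process and maintain mitochondrial nucleic acids were called about as often as all genes, of which 9.12% were lower and 21.8% higher in H3.3-KD. Of 10 tested genes of mitochondrial transcription, 1 was called lower in H3.3-KD, Mterf1b (-1.18 ± 0.41, adjusted p = 0.0499, limma), a gene related to the termination factor, and the median of the list was -0.03. The RNA polymerase gene Polrmt (0.86 ± 0.35, adjusted p = 0.0830) and the packaging and transcription factor Tfam (0.19 ± 0.39, adjusted p = 0.743) did not pass. Of 39 genes of RNA processing and stability 8 were higher and 2 lower, with a median of 0.52. The smallest p there was that of Gtpbp3, a tRNA modification enzyme, at 19.0 ± 6.57 FPKM against 2.15 ± 0.976 (log2 fold change 2.66 ± 0.37). Lower were Trmt5 (-0.84 ± 0.29), which encodes a tRNA methyltransferase, and Slirp (-1.54 ± 0.41, adjusted p = 0.0173), which binds and stabilises mitochondrial messenger RNAs together with Lrpprc. Of 16 genes of mitochondrial DNA maintenance 3 were higher, among them the helicase gene Twnk (2.05 ± 0.31), and 1 was lower, the single-stranded DNA binding gene Ssbp1 (93.1 ± 10.7 FPKM against 272 ± 29.7, log2 fold change -1.54 ± 0.22). Polrmt, Tfam, Trmt5, Slirp and Twnk are named here for their roles, after their values were seen. The call of Mterf1b was lost without any of the control or H3.3-KD libraries, left out in turn (adjusted p up to 0.143, limma).

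In MFN1-KD, 1 of the 79 nuclear subunits was called lower and 0 higher, beside 2.20% and 1.15% of all genes tested. It was Ndufs4 of complex I (23.5 ± 7.25 FPKM against 66.9 ± 12.5, log2 fold change -1.50 ± 0.33, adjusted p = 0.0419, limma). The smallest p of the other complexes were those of Uqcrc2 (-0.90 ± 0.26), Cox6a1 (-0.81 ± 0.23) and Atp5d (-1.57 ± 0.42), with adjusted p of 0.0800, 0.0801 and 0.0703 (limma). Of the transcription genes, 2 were called lower, Mrpl12 (77.7 ± 14.6 FPKM against 180 ± 27.0, -1.21 ± 0.22, adjusted p = 0.0333), whose product is a ribosomal protein also known to bind the mitochondrial RNA polymerase, and Mterf1b (-1.76 ± 0.41, adjusted p = 0.0477). The smallest p of RNA processing was that of Fastkd3 (1.11 ± 0.28, adjusted p = 0.0577) and that of DNA maintenance was that of Twnk (0.90 ± 0.31, adjusted p = 0.121), and neither list held a called gene. The call of Ndufs4 was lost without any control library, MFN1-KD library 1 or 3, or H3.3-KD library 1 or 2, left out in turn. That of Mrpl12 was lost without any control library or H3.3-KD library 1 or 2. Without control library 3 their adjusted p were 0.175 and 0.145 (limma). Both calls were also lost with no filter on low values, with the replicate number as a block and with only the 6 libraries compared. Mterf1b was low in control, at 5.30 ± 0.98 FPKM (SD, n = 3). The medians of the 7 lists lay between -0.75 for transcription and -0.17 for DNA maintenance and complex I, beside -0.08 over all genes tested.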

How the data were processed

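RNA was measured in 9 libraries of 8-cell embryos, 3 in each of the groups control, MFN1-KD and H3.3-KD, assigned from the sample titles. Per the labels and methods, the authors amplified cDNA by Smart-Seq2, trimmed reads with cutadapt 1.16 and mapped them with STAR to mm10. The files as deposited give FPKM, which the authors had normalized for gene length and library size. The program, the annotation and the strand setting behind them are not given in the sources used here, and depth is unknown.

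The 13011 genes whose mean reached 1 FPKM were fitted as log2(FPKM + 1) with limma 3.58.1 (trend and robust options, R 4.3.3), without a covariate, and p-values were adjusted over all of them. Fold changes are on this scale, which understates changes of low genes. Ratios were tested by exact permutation, two-sided. The fit was first tested on simulated data. Copies were found with blastn 2.17.0 among GENCODE M21 transcripts.

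The named genes are all protein and rRNA genes, the 3 tRNA genes with the highest control mean, called tRNA genes, the smallest p of each list in each knockdown, and the siRNA targets. The members and lists were chosen with earlier results of these data known. Alternatives were other pseudocounts, filters and scalings, the replicate number as a block, removal of the GC and length trend, library weights, 6 libraries and each library left out. Adding the copies, and all alternatives for the nuclear lists, were chosen after seeing the data. Same-numbered libraries of different groups had correlations of their deviations from -0.05 to 0.16, with 2 of 9 pairs over 0.1. The numbers were not used as pairs in the main fit, although these correlations cannot exclude a shared batch.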

Additional observations from a re-analysis of the deposited data

Results flagged for a closer look

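The effects of the knockdowns differed by the direct test between MFN1-KD and H3.3-KD (limma, adjusted p under 0.05 over all genes tested) for the following genes, with positive log2 differences higher in MFN1-KD. Among the rRNA genes the differences were 2.62 for mt-Rnr1 and 3.12 for mt-Rnr2. For complex I they were 2.67 for mt-Nd1, 2.11 for mt-Nd2, 3.43 for mt-Nd3, 2.21 for mt-Nd4, 2.39 for mt-Nd5 and 3.04 for mt-Nd6. For mt-Cytb of complex III the difference was 2.60, and for complex IV it was 1.89 for mt-Co1, 0.96 for mt-Co2 and 2.08 for mt-Co3.

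The named nuclear genes that differed in the same direction were Ndufa1 (2.29), Uqcrh (1.84), Ndufa4 (2.06), Atp5j (2.05), Ssbp1 (1.38), Slirp (1.82) and Fastkd3 (0.77). Those that were lower in MFN1-KD than in H3.3-KD were Atp5d (-2.94), Gtpbp3 (-2.15), Mrpl12 (-1.69) and Twnk (-1.15).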

How the results depend on the processing

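In H3.3-KD, 9 of the 13 protein genes and both rRNA genes were called lower in all 22 settings, and mt-Co2 in 17, mt-Atp6 in 15, mt-Nd4l in 11 and mt-Atp8 in 6. With each library left out in turn, 9 to 13 were called. The median log2 fold change of the 13 was -2.23 with median-ratio and -2.31 with upper-quartile scaling, -1.49 with the same summed FPKM in each library, -1.62 with the same sum outside the mitochondrial genes and -1.32 with the GC and length trend removed, where mt-Atp8 (0.65) and mt-Atp6 (0.025) turned direction. The median over all genes moved with these scalings to -0.00, -0.07, 0.56, 0.47 and -0.02, and the split of all called genes from 1187 lower and 2841 higher to 1778 and 2078, 1968 and 1888, 701 and 3968, 847 and 3513, and 1567 and 1482. For MFN1-KD against H3.3-KD the median was 2.53, 2.60, 1.81 (same summed FPKM) and 1.498 (GC and length). There mt-Atp8 (-1.52), mt-Atp6 (-0.41) and mt-Nd4l (-0.71) turned with the trend removed, as did mt-Nd4l with the same summed FPKM (-0.048) and over the libraries left out (lowest -0.23, without MFN1-KD replicate 2, highest 0.77 without MFN1-KD replicate 3).

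In MFN1-KD the protein genes called numbered 1 with library weights (mt-Nd3, -1.04) and 0 to 1 with a library left out (mt-Nd4l, -1.52, without MFN1-KD replicate 2). Their median was 0.10 with the same summed FPKM, 0.16 with the same sum outside the mitochondrial genes, -0.12 with weights and -0.14 to 0.042 with a library left out. Nuclear subunits called lower numbered 6 with a mean of at least 10 FPKM, 2 with median-ratio scaling, 7 with weights, 0 to 3 with a library left out, and 0 with no filter, either summed FPKM, the replicate block or 6 libraries. Small changes turned direction: mt-Co1 (-0.018) and mt-Co2 (-0.18) with weights, mt-Co2 (-0.0031) and mt-Atp6 (0.015) with copies added, and mt-Co3 (0.032) with the same sum outside the mitochondrial genes. With a library left out, the ranges were -0.0093 to 0.042 for mt-Co1, -0.14 to 0.21 for mt-Co2, -0.55 to 0.026 for mt-Atp8, -0.49 to 0.022 for mt-Atp6, -0.32 to 0.022 for mt-Co3 and -0.071 to 0.53 for mt-Cytb.

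With the replicate block, 13 protein genes were called lower in H3.3-KD, 0 were called in MFN1-KD, and mt-Rnr1 in MFN1-KD missed the threshold (adjusted p = 0.0505, limma). The cause of these changes was not tested. Depth is unknown, so precision rests on 3 libraries a group.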
